A study of Homo sapiens with 4 samples.

Results

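Translation initiation factor genes were followed in HCT116 cells with and without hydrogen peroxide. The genes were taken by symbol, as every listed id that starts with EIF and a digit from 1 to 6, leaving out the EIF2AK kinases and ids with a hyphen. This gave 46 of the 16376 genes listed. RNA-seq libraries from poly(A)-selected RNA were made for 2 samples treated with H2O2, an oxidant that enters cells, and for 2 untreated Control samples of the same line. HCT116 is a human colon cancer cell line, and all 4 samples carry its genotype. Neither a dose nor an exposure time is given in the labels. Whether the replicates were grown as separate cultures is not stated, and the p-values therefore speak only of the spread among these 4 samples, which may be technical.

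Cap-dependent initiation begins when the initiator tRNA, bound by eIF2 and GTP, is loaded onto the small ribosomal subunit together with eIF1, eIF1A, eIF3 and eIF5. The cap-binding complex eIF4F, made of eIF4E, the helicase eIF4A and the scaffold eIF4G, brings the mRNA, and the subunit scans to the start codon before eIF5B joins the large subunit. Stress is best known to act on this machinery through proteins already made. Phosphorylation of the alpha subunit of eIF2 blocks its exchange factor eIF2B, and unphosphorylated 4E-BP proteins sequester eIF4E. RNA-seq measures the mRNAs of the factors and sees neither of these steps.

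The deposited table gives group means, and the whole read counts of the 4 libraries behind them were worked back from them, since each mean fits only 1 pair of counts per group. The libraries of a group are called deeper and shallower by their total counts, since the table ties none to a replicate number, and wherever a group has a pair of values the deeper library comes first. Normalized counts are reads divided by the size factor of the library. Totals over listed genes ran from 6858809 to 7365032 reads. Directions rest on reading the table's groups A and B as Control and H2O2. All 6 epithelial markers checked (EPCAM, KRT8, KRT18, KRT19, CDH1 and CLDN4) were listed, with summed counts of 13022 and 11578 reads with H2O2 against 9938 and 10940 reads in Control. Of 11 blood, endothelial and fibroblast markers, CD14, COL1A1 and PDGFRB were listed. The 2 fibroblast markers summed to 595 and 543 reads with H2O2 against 806 and 757 reads in Control, and CD14 had 19 and 10 reads with H2O2 against 5 and 3 reads in Control. CLDN4 and CD14 were called higher and COL1A1 lower in the authors' deposited table. The part of these markers in the results below was not tested.

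No initiation factor gene passed the threshold. At an adjusted p under 0.05, 0 of the 46 were called in the authors' deposited table, where 7.19% of all listed genes were called, 2.58% higher and 4.62% lower with H2O2. A linear model per gene (limma), fitted to log2(normalized count + 1) of the recovered libraries, also called 0 of 46, where 4.1% of all genes were called. Thresholds of 0.01 and 0.1 left the authors' deposited table at 0 of 46, where 3.92% and 10.1% of all genes were called. So did a filter at a mean of 50 normalized counts, which 45 of the 46 passed, where 7.24% were called. Under limma with other scalings, pseudocounts of 0.5 and 5 and a transcript length correction it was again 0, where 4.09%, 4.0%, 4.05%, 4.18% and 4.63% of genes were called. The smallest adjusted p among the 46 in the authors' deposited table was 0.119, for EIF4A1. At an unadjusted p under 0.05 the authors' deposited table held 3 of the 46 (EIF4A1, EIF5A and EIF1B, 6.52%), against 19.6% of all genes, and limma gave 6 of 46, against 20.2% of all genes.

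The differences were small as well as uncalled. Log2 fold changes of the 46 genes in the authors' deposited table ran from -0.59 to 0.31. The 95% interval of limma's fold change, over 2 libraries per group, stayed within 2-fold in both directions for 44 of the 46 genes, against 80.1% of all genes. The 2 exceptions were EIF4A1 and EIF5AL1. Low counts widen the interval, and among genes with a mean of at least 50 normalized counts the share was 44 of 45, against 96.5% of all such genes, so the contrast is with the low genes of the table. It stayed within 1.5-fold for 40 of the 46, against 53.7% of all genes, and the other exceptions were EIF1B, EIF4E, EIF2S2 and EIF3F. With a mean of at least 50 it was 40 of 45, against 72.2% of all such genes. Level was not matched here, since the median of the means was 903 normalized counts for the 45 and 332 for all such genes. EIF5AL1 had a mean of 10.98 normalized counts, and the other 45 genes had means between 55.8 and 6933.

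**Figure D1:**
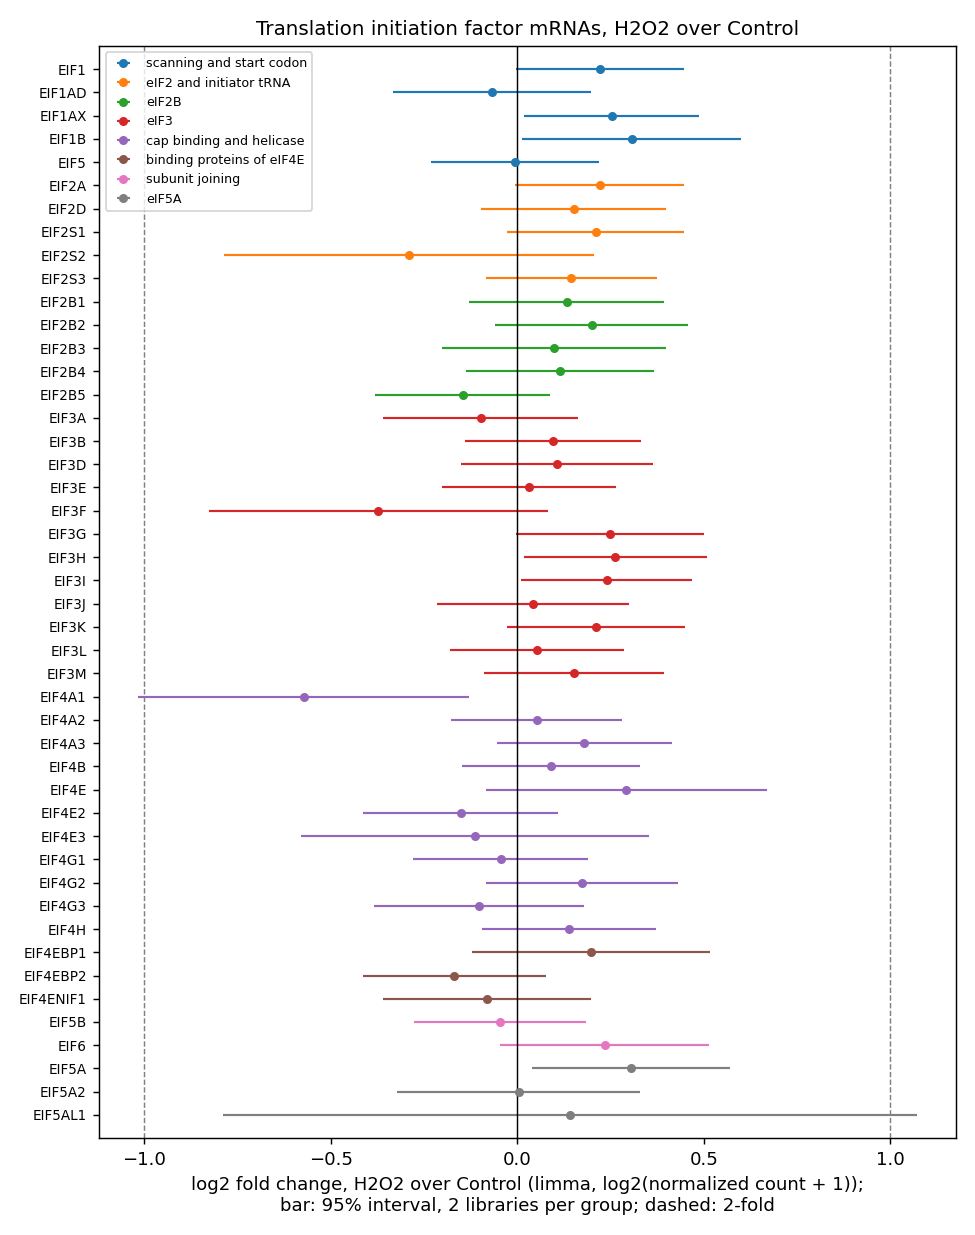
Log2 fold change of each of the 46 initiation factor genes, H2O2 over Control, with its 95% interval (limma, log2 of normalized count + 1, 2 libraries per group), coloured by role. The intervals of EIF4A1 and EIF5AL1 reach past the dashed 2-fold lines and those of the other 44 genes do not.

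Most of these small differences pointed the same way. The log2 fold change was above 0 for 32 of 46 genes (69.6%) in the authors' deposited table, against 50% of all genes, and the median was 0.11 against 0.00029 over all genes. Both H2O2 libraries lay above both Control libraries for 18 of the 46 genes (39.1%), against 26.3% of all genes. Both lay below both controls for 4 genes (8.70%), against 25.6% of all genes. The remaining 24 overlapped. Over the 45 genes with a mean of at least 50, the shares were 68.9% above 0, 40% higher without overlap and 8.89% lower without overlap, against 49.9%, 26.5% and 26.6% of all genes with such a mean. As a share of the reads counted in listed genes, the 46 genes took 1.069% and 1.079% with H2O2, against 0.998% and 1.027% in Control. The exact reads behind these shares give 95% Wilson intervals of 1.062% to 1.077% and 1.071% to 1.087% with H2O2, and of 0.9909% to 1.005% and 1.02% to 1.035% in Control, which cover counting error only. Shares of a library cannot show whether the mRNA per cell changed, and the labels give neither cell number nor RNA per cell.

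Among the genes grouped by symbol under scanning and start codon choice, EIF1, EIF1AX and EIF1B stood higher in both H2O2 libraries than in both controls. EIF5 and EIF1AD did not, and 26.3% of all genes stood higher in this way. EIF1, which encodes the factor that keeps scanning accurate, had 2636 and 2672 normalized counts with H2O2 against 2208 and 2347 in Control. EIF1B, its close paralogue, had 341 and 295 normalized counts with H2O2 against 242 and 272 in Control, a log2 difference of 0.31 ± 0.14 (SE, limma, adjusted p = 0.227). EIF1AX, which encodes eIF1A, had 699 and 693 normalized counts with H2O2 against 590 and 577 in Control. Its libraries agreed closely within each group, and the log2 difference was 0.25 ± 0.11 (SE, limma, adjusted p = 0.214). EIF5, the GTPase-activating protein for eIF2, had 1407 and 1317 normalized counts with H2O2 against 1378 and 1355 in Control. Its groups overlapped, and limma's 95% interval of the log2 difference ran from -0.23 to 0.22.

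The subunits of eIF2 did not all lie on the same side. EIF2S1, the alpha subunit that stress kinases phosphorylate, had 1656 and 1860 normalized counts with H2O2 against 1447 and 1590 in Control, and a log2 difference of 0.21 ± 0.11 (SE, limma, adjusted p = 0.305). EIF2S3, the GTP-binding gamma subunit, had 2609 and 2805 normalized counts with H2O2 against 2398 and 2495 in Control. Both genes were higher in each H2O2 library than in each control, as were 26.3% of all genes. EIF2S2, the beta subunit, had only 57.0 and 43.7 normalized counts with H2O2 against 65.2 and 57.5 in Control, a log2 difference of -0.29 ± 0.23 (SE, limma, adjusted p = 0.506). Its H2O2 libraries lay just below its controls, and 25.6% of all genes were lower without overlap. EIF2A and EIF2D, which encode separate proteins able to bind initiator tRNA without eIF2, had log2 differences of 0.22 ± 0.11 and 0.15 ± 0.12 (SE, limma, adjusted p = 0.259 and 0.484), and neither overlapped between groups.

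The exchange factor eIF2B reloads eIF2 with GTP and is the target of the phosphorylated alpha subunit. Of its 5 subunit genes, 4 had log2 fold changes above 0 in the authors' deposited table, from 0.095 for EIF2B3 to 0.20 for EIF2B2. Over all genes, 50% were above 0 and 25.6% were lower without overlap. EIF2B5, the catalytic epsilon subunit, had 796 and 835 normalized counts with H2O2 against 862 and 946 in Control. It was the 1 subunit lower in both H2O2 libraries, with a log2 difference of -0.15 ± 0.11 (SE, limma, adjusted p = 0.474). In all 5 genes the shallower library of each group had the higher normalized count, by a median of 0.14 with H2O2 and 0.18 in Control on the log2 scale.

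The eIF3 scaffold, the largest initiation factor, was represented by 12 subunit genes, of which 10 had log2 fold changes above 0 in the authors' deposited table. The median of the 12 was 0.098. EIF3G, EIF3H, EIF3I, EIF3K and EIF3M were higher in both H2O2 libraries than in both controls, and the other 7 genes overlapped. Of all genes, 50% were above 0 and 26.3% were higher without overlap. EIF3H had 5018 and 5234 normalized counts with H2O2 against 3999 and 4563 in Control, a log2 difference of 0.26 ± 0.12 (SE, limma, adjusted p = 0.217). EIF3G, an RNA-binding subunit, had 2438 and 2363 normalized counts with H2O2 against 1822 and 2239 in Control, and EIF3I had 2262 and 2320 against 1842 and 2043 in Control. For EIF3G, EIF3H, EIF3K and EIF3M the lower H2O2 library exceeded the higher control by less than the controls differed from each other. EIF3A, the largest subunit, had 6190 and 6096 normalized counts with H2O2 against 7205 and 5999 in Control, so its H2O2 libraries lay between the controls. EIF3F had 125 and 87.4 normalized counts with H2O2 against 162 and 114 in Control, a log2 difference of -0.37 ± 0.21 (SE, limma, adjusted p = 0.342), with overlapping groups.

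**Figure D2:**
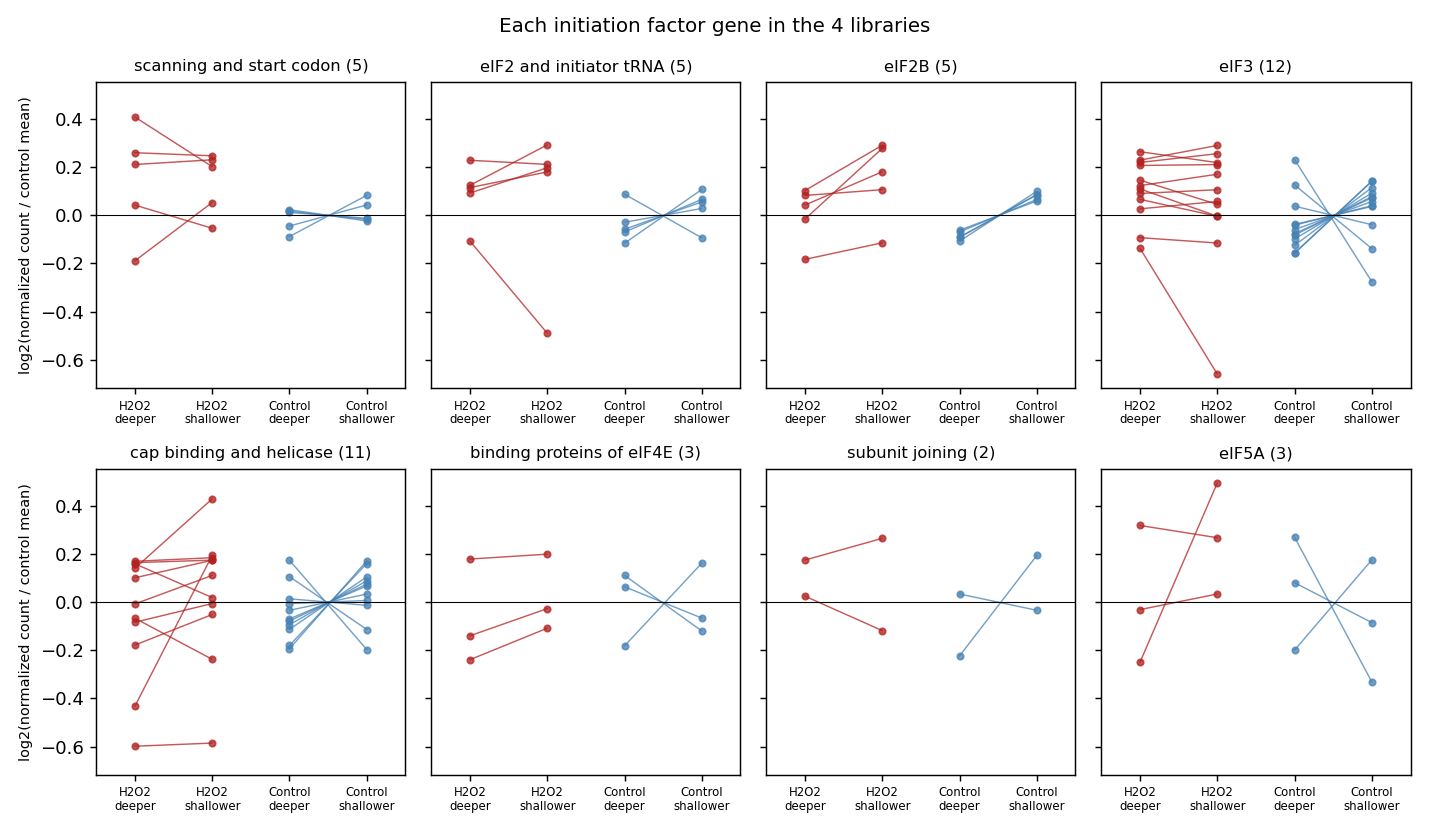
Normalized count of each initiation factor gene in each of the 4 libraries, as log2 over the gene's Control mean, with a panel for each role and its number of genes. Lines join the 2 libraries of a group, and Control lines cross near 0 because the Control mean is the baseline. In eIF3, the H2O2 points of EIF3F lie lowest.

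Among the factors that bind the cap and unwind the mRNA, the 3 parts of eIF4F gave different values. EIF4E, which encodes the cap-binding protein, had 145 and 177 normalized counts with H2O2 against 116 and 147 in Control. Its groups overlapped, and the log2 difference was 0.29 ± 0.18 (SE, limma, adjusted p = 0.367). EIF4G1, the main scaffold, had 4636 and 4893 normalized counts with H2O2 against 4891 and 4936 in Control, and limma's 95% interval of its log2 difference ran from -0.28 to 0.19. EIF4A1, the main helicase, had 60.8 and 61.4 normalized counts with H2O2 against 80.5 and 104 in Control. This was the lowest log2 difference of the 46 genes, at -0.57 ± 0.21 (SE, limma, adjusted p = 0.138). The value is uncertain, as explained with the levels below, because every stretch of 75 bases (word) of its transcript also occurs in other genes.

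Paralogues of the eIF4F parts lay on both sides of 0 as well. EIF4A2 had 2235 and 2426 normalized counts with H2O2 against 2194 and 2299 in Control, which overlap. EIF4A3, the helicase of the exon junction complex, had 2781 and 2810 against 2317 and 2629 in Control, which do not. EIF4G2, which encodes an eIF4G relative without the part that binds eIF4E, had the highest count of the 46 genes, with 7312 and 7364 normalized counts with H2O2 against 7023 and 6032 in Control. EIF4E2, a cap-binding repressor of translation, had 402 and 357 normalized counts with H2O2 against 425 and 417 in Control, a log2 difference of -0.15 ± 0.12 (SE, limma, adjusted p = 0.509). EIF4B and EIF4H, cofactors of the helicase, had log2 differences of 0.091 ± 0.11 and 0.14 ± 0.11 (SE, limma, adjusted p = 0.688 and 0.497).

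Of the proteins that hold eIF4E, EIF4EBP1 had 246 and 250 normalized counts with H2O2 against 192 and 243 in Control. Its H2O2 libraries lay above the higher control by less than the controls differed, and the log2 difference was 0.20 ± 0.15 (SE, limma, adjusted p = 0.477). EIF4EBP2 had 1085 and 1188 normalized counts with H2O2 against 1383 and 1178 in Control, and overlapped. Its log2 difference was -0.17 ± 0.12 (SE, limma, adjusted p = 0.426), and 0.00133 once a length trend was taken off. EIF4ENIF1, which encodes the eIF4E transporter, had a log2 difference of -0.082 ± 0.13 (SE, limma, adjusted p = 0.764).

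The E-box CACGTG, the sequence bound by MYC with its partner MAX, was looked for in RefSeq promoters (GRCh38.p14, 250 bases before to 50 after each start), since EIF4E is a textbook MYC target. The letters read the same on both strands. They occurred in the promoters of 10 of 39 matched initiation factor genes (25.6%), against 12.3% of 10323 listed genes with a promoter and 8.77% of all 27305 genes in the promoter table. A gene counted if any of its promoters held the letters, and the number of promoters per gene was not matched. Of the 54 promoters of the initiation factor genes, the downstream end of 42 was found in GENCODE transcripts of the gene. The genes were EIF1B, EIF2B3, EIF3F, EIF3K, EIF4A3, EIF4B, EIF4E, EIF4G1, EIF4H and EIF5A2. In the authors' deposited table the log2 fold change was below 0 for EIF3F and EIF4G1 and above 0 for the others. Of all 46 initiation factor genes, 69.6% were above 0. A match is a description of the letters and not a binding site. The 2 matches of EIF4E and of EIF4G1, both parts of the cap-binding complex, are shown with the E-box in capitals, each on the strand of its gene.
EIF4E at chr4:98929341-98929370, minus strand, 225 bases before the start: ctacccatcggcCACGTGaccagtcctttt
EIF4E at chr4:98929188-98929217, minus strand, 72 bases before the start: ggacatatccgtCACGTGgccagaagctgg
EIF4G1 at chr3:184314450-184314479, plus strand, 144 bases before a start: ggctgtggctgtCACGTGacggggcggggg
EIF4G1 at chr3:184314527-184314556, plus strand, 67 bases before a start: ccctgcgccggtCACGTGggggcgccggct
The motif TGATGCAAT, a core of the element bound by ATF4 with C/EBP proteins, was found on neither strand in any of the 39, and in 0.203% of listed genes with a promoter. At so low a share, a count of 0 among 39 genes is near the background and says nothing of these genes.

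For the late steps, EIF5B, the GTPase that joins the ribosomal subunits, had 2116 and 1916 normalized counts with H2O2 against 2129 and 2031 in Control. EIF6, which keeps free large subunits apart from small ones, had 1109 and 1181 normalized counts with H2O2 against 842 and 1124 in Control. Both overlapped between groups.

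The eIF5A proteins carry hypusine, a modified lysine with which they help ribosomes through difficult peptide bonds, and EIF5A encodes the main form. It had 1947 and 1880 normalized counts with H2O2 against 1360 and 1764 in Control, a log2 difference of 0.30 ± 0.12 (SE, limma, adjusted p = 0.188). Both H2O2 libraries exceeded both controls, but the controls differed from each other by more than the higher control differed from either H2O2 library. EIF5A2, its paralogue, had 164 and 172 normalized counts with H2O2 against 177 and 158 in Control, with a log2 difference of 0.0034 ± 0.15 (SE, limma, adjusted p = 0.993). The retrocopy EIF5AL1 had 9 and 14 reads with H2O2 against 13 and 8 reads in Control.

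Sequence decides how well reads of these 3 genes can be kept apart, so 60 coding bases round the codon of the hypusine lysine (codon 50) are shown from GENCODE transcripts, from coding base 118 to 177. Capitals mark bases that differ from EIF5A.
EIF5A: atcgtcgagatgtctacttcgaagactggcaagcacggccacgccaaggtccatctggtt
EIF5AL1: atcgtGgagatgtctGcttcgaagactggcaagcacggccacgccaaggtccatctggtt
EIF5A2: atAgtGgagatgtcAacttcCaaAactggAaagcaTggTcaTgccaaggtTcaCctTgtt
In this stretch EIF5AL1 differs from EIF5A at 2 bases and EIF5A2 at 12. Over the whole coding sequence, identity to EIF5A was 98.9% for EIF5AL1 and 71.4% for EIF5A2. Of the 75-base words of the EIF5A transcript, 18% also occur in transcripts of EIF5AL1 and EIF5AP4, so the counts of EIF5A and EIF5AL1 are uncertain. EIF5A2 shared none.

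Levels can be compared between genes only per length, and here the group mean of normalized counts was divided by the length of 1 GENCODE transcript per gene. On this scale the eIF3 subunits spanned 84.9 to 2177 per kb with H2O2 and 110 to 1841 per kb in Control. For the transcripts chosen, EIF3G, EIF3D and EIF3I were the highest. They had 2177, 1930 and 1571 per kb with H2O2 against 1841, 1802 and 1332 per kb in Control. EIF3J, a loosely bound subunit, had 153 per kb with H2O2 and 149 per kb in Control. EIF3F had the lowest level of the 12, and 35.4% of its words occur in another gene, the pseudogene EIF3FP3. The part of these shared words in its low level was not tested.

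Within eIF2 the gap was wider still. EIF2S2 had 18.9 per kb with H2O2 and 23.1 per kb in Control, against 392 and 339 per kb for EIF2S1 and 947 and 856 per kb for EIF2S3. Of the words of EIF2S2, 18.5% occur in other genes, pseudogenes of EIF2S2. Within eIF4F, EIF4A1 had 34.8 per kb with H2O2 and 52.4 per kb in Control, while its paralogue EIF4A2 had 1214 and 1171 per kb. All words of EIF4A1 occur in other genes, among them SENP3-EIF4A1 and AC016876.2, which overlap it on the same strand, and 14.7% occur in genes that do not overlap it. EIF4E had 14.0 per kb with H2O2 and 11.4 per kb in Control, with 3.90% of its words shared and a transcript of 11523 bases, so a shorter transcript in use would raise its level. EIF3L, EIF4B and EIF4E3 also shared over 20% of their words, at 36.1%, 21.0% and 56.0%. For these genes too, the part of shared or overlapping sequence was not tested.

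**Figure D3:**
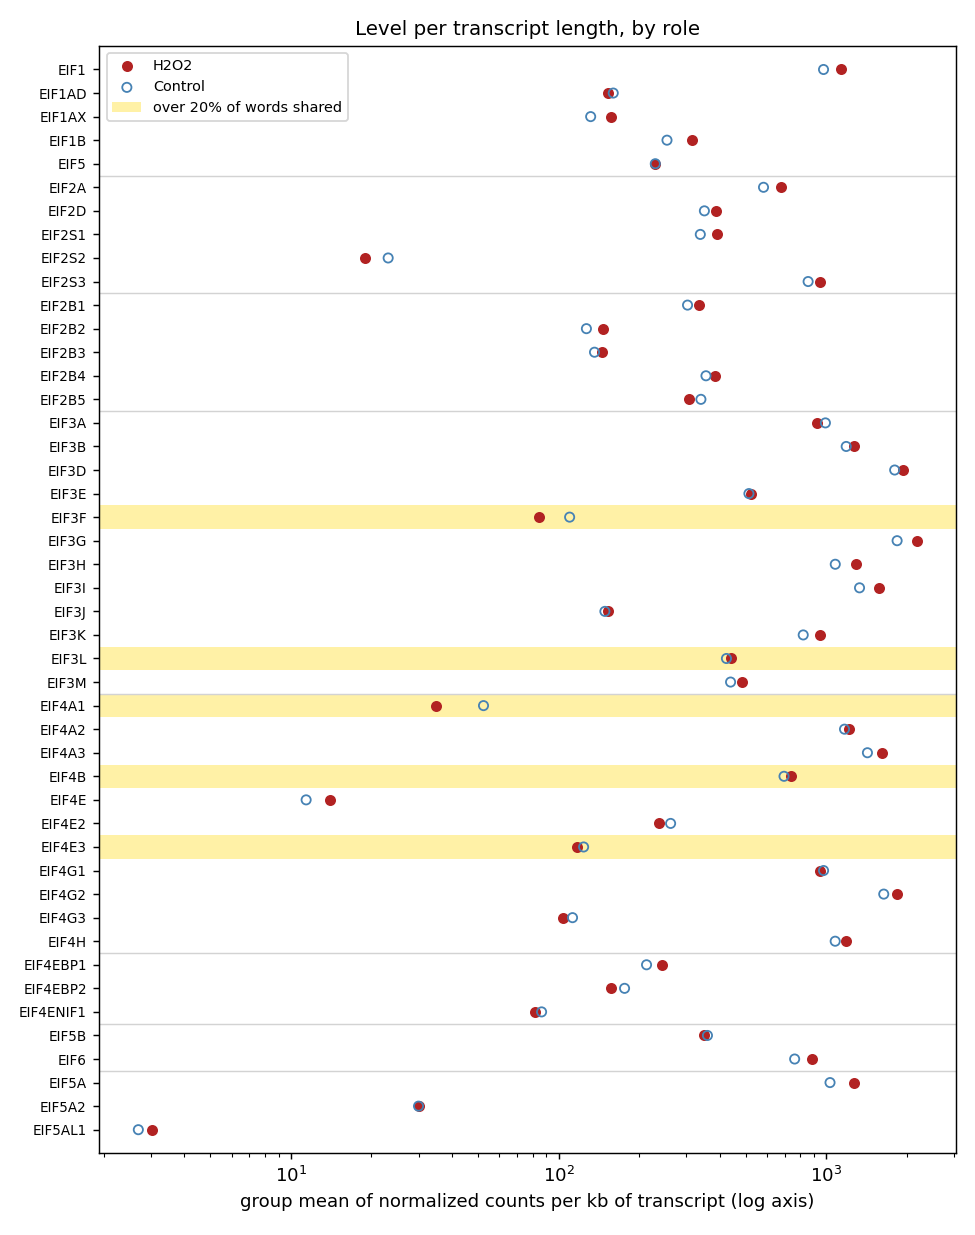
Group mean of normalized counts per kb of transcript on a log axis, for each initiation factor gene by role, with filled points for H2O2 and open points for Control. Yellow bands mark the 5 genes with over 20% of their 75-base words in other genes, among them EIF4A1 at 34.8 per kb with H2O2 and 52.4 per kb in Control.

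Leaving out the 5 genes with over 20% of shared words, the median log2 fold change of the other 41 was 0.14 in the authors' deposited table, and 30 of the 41 were above 0. The 5 had a median of -0.086 and 2 above 0.

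The count of 0 depended on the control libraries. Without the shallower control, limma called 19 of the 46 genes (41.3%), 15 higher and 4 lower, where 22.2% of all genes were called. Without the deeper control it called 2, EIF4G2 higher and EIF4A1 lower, where 8.52% of all genes were called. Each of these fits leaves a lone control that is assumed to vary like the H2O2 libraries. With either H2O2 library left out, the deeper or the shallower, it called 0, where 1.73% and 3.13% of all genes were called, and 2 and 1 of the 46 had an unadjusted p under 0.05. The sign of the log2 difference was the same in all 4 fits for 32 of the 46 genes. Of these, 24 were higher and 8 lower with H2O2. The fits share libraries with each other, so part of this agreement is built in, and no share over all genes was computed.

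Between the controls themselves, the median log2 difference of the 46 genes was 0.12 in the shallower over the deeper library, larger than the median of 0.11 between H2O2 and Control in the authors' deposited table, and against 0.0094 over all genes. Between the H2O2 libraries it was 0.027. Transcript length moved with these differences across genes, which are not independent replicates, and not in the same direction for each. Spearman's rho of length with the difference between the controls was -0.46 over the 46 genes and -0.39 over 13933 listed genes with a length. With the difference between the H2O2 libraries, the shallower over the deeper, it was 0.23 and 0.13. With the log2 fold change in the authors' deposited table it was -0.19 and -0.32. After a length trend was taken off each library, the median of the 46 was 0.087 (limma).

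Other genes of translation were read from 6 lists, and 5 of their 72 listed genes (6.94%) passed in the authors' deposited table, close to the 7.19% of all genes. The calls are therefore given gene by gene and say nothing of the lists. EEF1D, a subunit of the exchange factor of the elongation factor eEF1A, had 1076 and 924 normalized counts with H2O2 against 1623 and 1491 in Control. It fell by 0.64 ± 0.11 on the log2 scale (SE, limma, adjusted p = 0.0058), and was the 1 called gene of 12 listed elongation factors and the 1 gene of the 6 lists that limma called. It passed in 3 of 4 fits with a library left out, and the exception was the fit lacking the shallower H2O2 sample (limma, adjusted p = 0.13). EEF1A2, an isoform of eEF1A, and EEF2K, the kinase that inhibits the translocation factor eEF2, came next in the list, and neither passed. EEF1A2 had 4327 and 4037 normalized counts with H2O2 against 3127 and 3757 in Control, and EEF2K had 309 and 303 against 384 and 371 in Control.

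The other 4 were called in the authors' deposited table and not by limma with all 4 libraries. LARP1, which binds the start of mRNAs of the translation machinery, had 1680 and 1727 normalized counts with H2O2 against 2514 and 2059 in Control (limma, adjusted p = 0.0588), as the 1 called gene of 11 in the poly(A) list. TSC1 and TSC2, which together restrain the kinase mTOR, were the 2 called of 17 regulators of initiation, both lower, where 4.62% of all genes were called lower. TSC1 had 400 and 450 normalized counts with H2O2 against 608 and 521 in Control (limma, adjusted p = 0.0833). TSC2 had 558 and 513 normalized counts with H2O2 against 711 and 703 in Control (limma, adjusted p = 0.0598). YBX1, an mRNA-binding protein, was the 1 called gene of 12 helicases and non-canonical factors, and was higher, with 1568 and 1445 normalized counts with H2O2 against 1024 and 1269 in Control (limma, adjusted p = 0.0764). Of its words 25.6% occur in other genes, so its value is uncertain. With a library left out, limma called LARP1 and TSC2 in 2 of 4 fits and TSC1 and YBX1 in 1 of 4. The next genes by p-value, PAIP1, PAIP2B, AKT1S1, PTBP1 and DENR, did not pass. The authors' deposited table gave them log2 values of 0.59, -0.42, 0.35, 0.23 and 0.24 for H2O2 over Control, and 23.6% of the words of PAIP1 occur in another gene. None of 9 termination and recycling genes and none of 12 mitochondrial factors passed in the authors' deposited table or in limma. At 7.19% and 4.1% of all genes called, a count of 0 in lists of this size is near the background. No gene of either list had an unadjusted p under 0.05, against 19.6% of all genes in the authors' test and 20.2% in limma. The smallest p-values of these lists belonged to ETF1, PELO and ZNF598, and to ICT1, TSFM and C12orf65. The list medians ran from -0.087 for the regulators to 0.14 for the mitochondrial factors, against 0.00029 over all genes in the authors' deposited table.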

How the data were processed

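RNA-seq of 2 H2O2-treated and 2 Control samples of HCT116 cells was deposited as 1 table. The submitters' processing notes name DESeq, HTSeq, STAR, Trim Galore, FastQC and CASAVA 1.8, without roles, on the build hg19. For annotation and strand setting, nothing is given in the sources used here, so reads of overlapping and antisense genes cannot be told apart. Per the file headers, the authors' group means are a signal: normalized counts. The size factor of each library was worked back from these means along with the counts. The fold column is the authors' ratio of the group means and the log2 column its log2, as deposited. Per the file headers, the authors' p-value and adjusted p-value come with each gene, and the adjustment was checked to be Benjamini-Hochberg. Genes with a mean under 5.46 over all libraries are not analysed here.

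Group means were solved for pairs of whole counts within a tolerance of 1e-09, and all 16376 genes had 1 solution per group. Calls rest on the authors' adjusted p under 0.05. The alternative is limma 3.58.1 (R 4.3.3), fitted with a trend to log2(normalized count + 1), with Benjamini-Hochberg adjustment over all genes. Its fold changes understate low genes. Both the recovery and limma were tested on simulated data. Lengths and shared 75-base words were taken from GENCODE 29, in which 85.1% of listed genes and all 46 members were found by name. That release is on another build, so coordinates are given only for RefSeq promoters.

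The members and gene lists were chosen with earlier results of these data known. Given in full are the 5 highest and 5 lowest genes by fold change of mean at least 50, and EIF4E, EIF4A1, EIF4G1, EIF4EBP1, EIF2S1, EIF2S2, EIF2S3 and EIF2B5; of each other list, called genes and the 3 of smallest p. Other members named were chosen by role. The helicase list holds NAT1, whose symbol is also an alias of EIF4G2 and which encodes an acetyltransferase. Alternatives were other scalings, pseudocounts, filters, thresholds, a length correction and each library left out.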

Additional observations from a re-analysis of the deposited data

How the results depend on the processing

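No paired analysis was possible because the recovered libraries carry no replicate numbers. The count of 0 called initiation factor genes stayed 0 under limma, both other scalings, both pseudocounts, the length correction, the filter at a mean of 50 and thresholds of 0.01 and 0.1. With 1 library left out it ran from 0 to 19. Their median log2 fold change of 0.106 ran from 0.0363 to 0.175 with 1 library left out, and moved by less than the spread between libraries of a group (SD 0.0612) under the other settings. No id starting with EIF2C was listed, so leaving such ids out changed nothing. Of 105 single-gene values under other settings, 103 kept their direction and side of the threshold. After the length correction, EIF4EBP2 stood at 0.00133 and EIF4G1 at 0.0448. The cause was not tested. With 1 library left out, 53 of 60 did, and 7 passed the threshold.

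For the other lists, limma with all 4 libraries, under each scaling, pseudocount and the length correction, gave 0 calls for the poly(A) list (1 in the authors' test), 0 for the regulators (2) and 0 for the helicase list (1). In the authors' test at 0.01 these 3 lists also gave 0, where 3.92% of all genes were called. At 0.1 the poly(A) list gave 2 of 11 and the regulators 3 of 17, where 10.1% of all genes were called. With 1 library left out the poly(A) list ran from 0 to 4, the regulators from 0 to 7, the helicase list from 0 to 3, the elongation factors from 0 to 3, termination from 0 to 2 and the mitochondrial factors from 0 to 3. Depth limits EIF5AL1 most, at 8 to 14 reads.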
